A study of Mus musculus with 8 samples.

Results

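The genes flanking Sox2 on mouse chromosome 3 were taken by a list of 9 names (Sox2ot, Fxr1, Dnajc19, Atp11b, Ttc14, Ccdc39, Dcun1d1, Mccc1 and Usp13). The list was made with earlier results of these data known, and it does not hold every gene of the region. Acad9, which starts 1416 kb from Sox2, is not on it, while Usp13 at 1833 kb is. Of the 9 names, 8 had a row in the per-sample tables. Since Dnajc19 and Dcun1d1 each had 2 rows, the genes took up 10 of the 18774 rows (17812 gene identifiers). Sox2ot, the long noncoding RNA in whose intron Sox2 lies, was not analysed here. Total RNA had been sequenced from 8 samples of the feeder-free mouse embryonic stem cell line E14TG2a (strain 129/Ola), kept on gelatin with leukemia inhibitory factor, the GSK3 inhibitor CHIR99021 and the MEK inhibitor PD0325901. The groups were unedited cells (WT) and 3 lines in which an enhancer had been knocked out with CRISPR/Cas9 (E1-KO, E2-KO and E3-KO), with 2 biological replicates each. All 4 groups shared the same medium and inhibitors. The labels do not give the enhancers' positions, nor whether a knockout line is 1 clone. Values were in FPKM, the number of fragments scaled for transcript length and for the mapped fragments of the sample, so levels can be compared between genes. The FPKM of a sample summed to 454974 to 532007. The tables hold no read counts, so the depth behind each value is unknown.

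Sox2 encodes an HMG-box transcription factor that holds stem cells pluripotent together with Oct4 and Nanog. It stands alone in a long stretch without other protein-coding genes, and distant enhancers in that stretch drive it in stem cells. An enhancer usually acts on promoters within its own folded domain of the chromosome. The genes beyond Sox2's gene-poor stretch belong mostly to the housekeeping class: mitochondrial proteins, RNA-binding proteins and enzymes of ubiquitin-like pathways. The series' design text names the association of different enhancers with the Sox2 promoter as its subject. For the listed flanking genes the same samples give RNA levels, which do not measure promoter activity directly.

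GRCm38 positions were taken from GENCODE M21. The tables carry no coordinates, and the submitters' processing notes name mm9, so these positions are the annotation's and differ from mm9. Sox2 (ENSMUSG00000074637) lay at 34650405 to 34652461 on the plus strand of chromosome 3. Upstream of it, in the order of their distance from start to start, were Dnajc19 (34056020 to 34081321, minus strand, 569 kb), Fxr1 (34019943 to 34070322, plus strand, 630 kb), Ccdc39 (33812362 to 33844310, minus strand, 806 kb), Ttc14 (33799832 to 33814860, plus strand, 851 kb) and Usp13 (32817546 to 32938071, plus strand, 1833 kb). Downstream were Atp11b (35754106 to 35856276, plus strand, 1104 kb), Dcun1d1 (35892105 to 35937445, minus strand, 1287 kb) and Mccc1 (35959312 to 36000678, minus strand, 1350 kb). No annotated protein-coding gene starts in the 569 kb between Dnajc19 and Sox2 or in the 1102 kb between Sox2 and Atp11b. A pair of neighbours overlap on opposite strands: Ttc14 and Ccdc39 share 2.5 kb, and Fxr1 and Dnajc19 share 14.3 kb. No source used here says whether the counting used strand, so reads from the shared stretches cannot be told apart between the 2 genes.

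Sox2 itself stood at 130.5 and 136.3 FPKM in WT, and in the knockouts at 58.0 and 60.3 (E1-KO), 113.6 and 97.5 (E2-KO) and 97.7 and 91.0 (E3-KO). Each of the 6 knockout values lay under both WT values. The log2 fold changes were -1.16, -0.34 and -0.50, with adjusted p of 0.000254, 0.0329 and 0.00541. These and all adjusted p below are from limma-trend on log2(FPKM + 1) over the 11788 rows with a mean of at least 1 FPKM, two-sided, with Benjamini-Hochberg adjustment, and a row was called under 0.05. The call of Sox2 in E2-KO was lost with median ratio scaling (-0.27, adjusted p 0.0610), in limma without the trend (0.0549), in a fit of the pair alone (0.0607), and without WT replicate 1 (-0.37, 0.108), WT replicate 2 (-0.31, 0.175), E1-KO replicate 1 (0.0620), E1-KO replicate 2 (0.0619) or E2-KO replicate 2 (-0.23, 0.118). In E3-KO it was lost without WT replicate 2 (-0.47, 0.0504). Fold changes on this scale understate the change of genes at low levels.

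In WT cells the flanking genes spanned a wide range of levels. Fxr1 was highest, with 194 ± 3.21 FPKM (SD, n = 2), above Sox2 at 133 ± 4.05. Dnajc19 had a row among the plus-strand genes of the tables at 77.1 ± 1.18 and a row among the minus-strand genes at 26.5 ± 5.82. Atp11b followed with 34.5 ± 3.88, Ttc14 with 27.3 ± 1.15, Dcun1d1 with 17.3 ± 0.227 in its higher row, and Mccc1 with 14.8 ± 1.76. Usp13 (3.73 ± 0.343), Ccdc39 (2.45 ± 0.201) and the lower row of Dcun1d1 (1.12 ± 0.113) were the lowest. The WT samples of Ttc14 and of the lower Dnajc19 row overlapped in level, and other neighbours in this order did not overlap.

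All 10 rows of the flanking genes were tested. In E1-KO 2 rows were lower (Ttc14 and the plus-strand row of Dnajc19), against 21.8% of all rows tested, and none was higher, against 15.1%. No member row was higher at an unadjusted p under 0.05 either, nor by limma without the trend. In E2-KO 3 rows were lower (Ttc14, Atp11b and the plus-strand row of Dnajc19), against 20.9% of all rows, and 1 was higher (the minus-strand row of Dnajc19), against 14.0%. In E3-KO 4 rows were lower (Ttc14, Ccdc39, Atp11b and the plus-strand row of Dnajc19), against 29.3%, and none was higher, against 14.1%. By limma-trend 1 row in E3-KO was higher at an unadjusted p under 0.05, and limma without the trend called none higher. The median log2 fold change of the 10 rows was -0.13 (E1-KO), -0.34 (E2-KO) and -0.36 (E3-KO), beside -0.05, -0.07 and -0.14 over all rows tested. These comparisons share the WT samples, so the knockouts do not repeat each other independently.

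**Figure D1:**
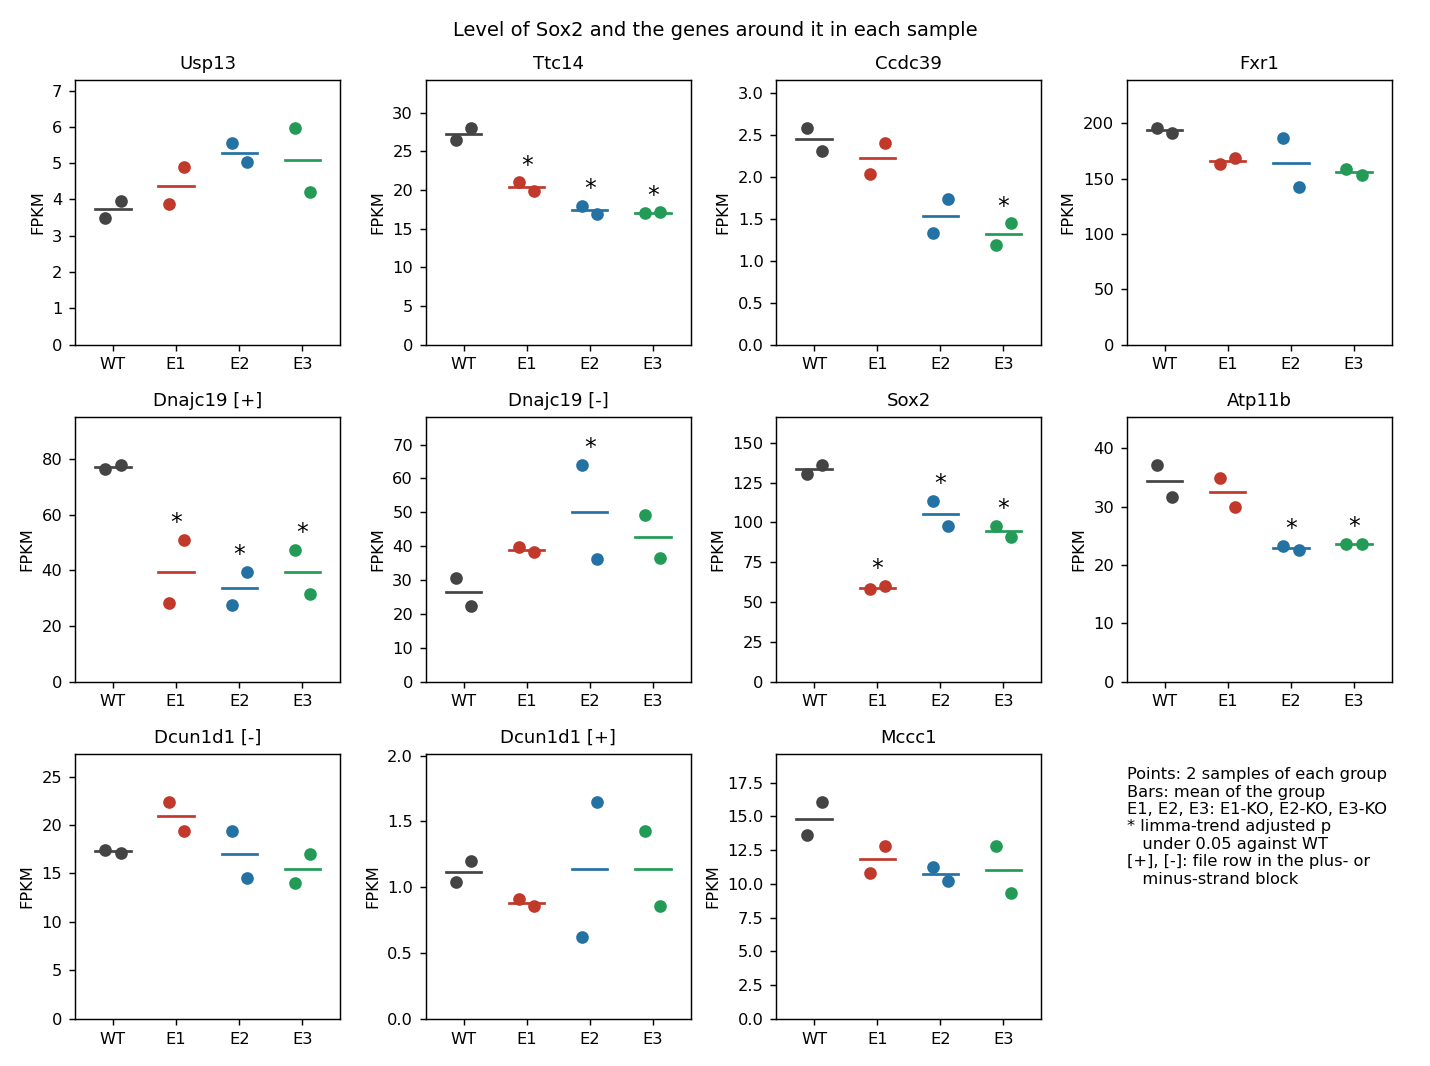
FPKM of each row of the flanking genes and of Sox2 in the 8 samples, on linear axes. Points are single samples (2 a group) and bars are group means; for Ttc14 the knockouts lie between 16.9 and 20.97 FPKM, under the WT samples at 26.5 and 28.1.

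On the upstream side Ttc14 was lower in every knockout and Ccdc39 in E3-KO. Ttc14 encodes a tetratricopeptide repeat protein and starts 851 kb upstream of Sox2. Its level was 26.5 and 28.1 FPKM in WT. E1-KO held 20.97 and 19.81, E2-KO 17.9 and 16.9, and E3-KO 17.0 and 17.1. No knockout value reached either WT value, and E2-KO and E3-KO also lay under both E1-KO samples. Ttc14 fell to 74.8% (E1-KO), 63.9% (E2-KO) and 62.5% (E3-KO) of the WT mean. The log2 fold changes were -0.40, -0.62 and -0.65 (SE 0.0964 each), with adjusted p of 0.0127, 0.00230 and 0.00127. The fall in E1-KO did not pass without WT replicate 1 (-0.44, adjusted p 0.0530), WT replicate 2 (-0.36, 0.102), E1-KO replicate 1 (-0.44, 0.0568) or E1-KO replicate 2 (-0.36, 0.0867). E3-KO against E1-KO gave -0.24 and did not pass (adjusted p 0.0980).

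Ccdc39, which overlaps Ttc14 on the other strand, encodes a coiled-coil protein needed to place the inner dynein arms of motile cilia. It was barely present in these cells, at 2.59 and 2.31 FPKM in WT. E1-KO held 2.04 and 2.41, E2-KO 1.34 and 1.74, and E3-KO 1.20 and 1.45. E1-KO overlapped WT, whereas both other knockouts lay under it. Ccdc39 fell in E3-KO by 0.57 on the log2 scale (SE 0.158, adjusted p 0.0186), while E2-KO had -0.45 (adjusted p 0.0572) and E1-KO -0.10 (0.653). The call in E3-KO was lost without WT replicate 1 (-0.51, adjusted p 0.104), WT replicate 2 (-0.63, 0.0627) or E3-KO replicate 1 (-0.50, 0.0748), and after correcting each sample for GC content and length (-0.45, 0.0629).

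Fxr1 encodes an RNA-binding protein of the fragile X family that controls translation. Its WT samples held 196 and 192 FPKM. E1-KO held 164 and 169, E2-KO 186 and 142, and E3-KO 159 and 154. The knockouts did not overlap WT in level, but no comparison with WT passed. Against WT the log2 fold changes were -0.22 (E1-KO), -0.25 (E2-KO) and -0.31 (E3-KO), with adjusted p of 0.206, 0.159 and 0.0774 (SE 0.127). The E2-KO replicates lay further apart than the WT and knockout means. With quantile normalization all 3 comparisons passed.

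Dnajc19, the nearest of the flanking genes that was measured, encodes a J-domain protein of the mitochondrial inner membrane that serves the TIM23 import motor. Its identifier had 2 rows. The tables are ordered by chromosome, strand and position, so each row was named by the strand of the rows around it: a minus-strand row at the gene's own place, and a plus-strand row among the genes of the opposite strand. The plus-strand row stood at 76.3 and 77.9 FPKM in WT. E1-KO held 28.2 and 50.8, E2-KO 27.6 and 39.5, and E3-KO 47.4 and 31.5. Every knockout value was well under the WT pair. The log2 fold changes were -1.01, -1.20 and -0.98 (SE 0.283), with adjusted p of 0.0239, 0.0125 and 0.0224. The replicates of a knockout differed widely, and leaving out 1 knockout sample ended each call. Without E1-KO replicate 1 the value was -0.59 (adjusted p 0.157), without E2-KO replicate 1 it was -0.95 (0.0779), and without E3-KO replicate 2 it was -0.69 (0.140). The calls were also lost without either WT sample. The adjusted p were then 0.0895 and 0.107 (E1-KO), 0.0596 and 0.0703 (E2-KO), and 0.0821 and 0.0962 (E3-KO). With all rows above 0 tested, E1-KO (0.0645) and E3-KO (0.0593) did not pass.

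The minus-strand row of Dnajc19 ran the other way. It held 30.7 and 22.4 FPKM in WT. E1-KO held 39.8 and 38.3, E2-KO 64.1 and 36.2, and E3-KO 49.1 and 36.6. Every knockout value exceeded the WT pair. It rose in E2-KO by 0.85 on the log2 scale (SE 0.257, adjusted p 0.0321), while E1-KO had 0.56 (0.121) and E3-KO 0.67 (0.0622). The call in E2-KO rested on E2-KO replicate 1, without which the value was 0.45 (adjusted p 0.166). It was also lost without WT replicate 1 (1.07, adjusted p 0.0508), WT replicate 2 (0.64, 0.196), or E1-KO replicate 1 or 2 (0.0513 each), in a fit of the 4 samples of the pair (0.0561) and with all rows above 0 tested (0.0798). Other settings added calls. E3-KO passed under all 5 other scalings of the samples (adjusted p 0.0224 to 0.0372), in the pair alone (0.0331) and without E2-KO replicate 1 or 2 (0.0171 and 0.0170). E1-KO passed in the pair alone (0.0206) and without E2-KO replicate 1 or 2 (0.0399 and 0.0396).

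Added together, the rows of Dnajc19 held 106.9 and 100.3 FPKM in WT. The knockout sums were 68.0 and 89.1 (E1-KO), 91.7 and 75.7 (E2-KO), and 96.5 and 68.0 (E3-KO). No knockout sum reached the WT sums, yet no comparison passed. The log2 fold changes of the sum were -0.41, -0.31 and -0.35, with adjusted p of 0.111, 0.216 and 0.151. The share of the plus-strand row in the sum was 71.3% and 77.7% in WT and 30.1% to 57.0% over the knockout samples, without overlap. Among the 145 identifiers with 1 tested row in each strand block, the rows had opposite signs for 46.9% (E1-KO), 45.5% (E2-KO) and 47.6% (E3-KO), and both rows were called in opposite directions for 5, 4 and 9 of them. What separates the rows of an identifier is not given in the sources used here, so neither row can be read as the level of Dnajc19.

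**Figure D2:**
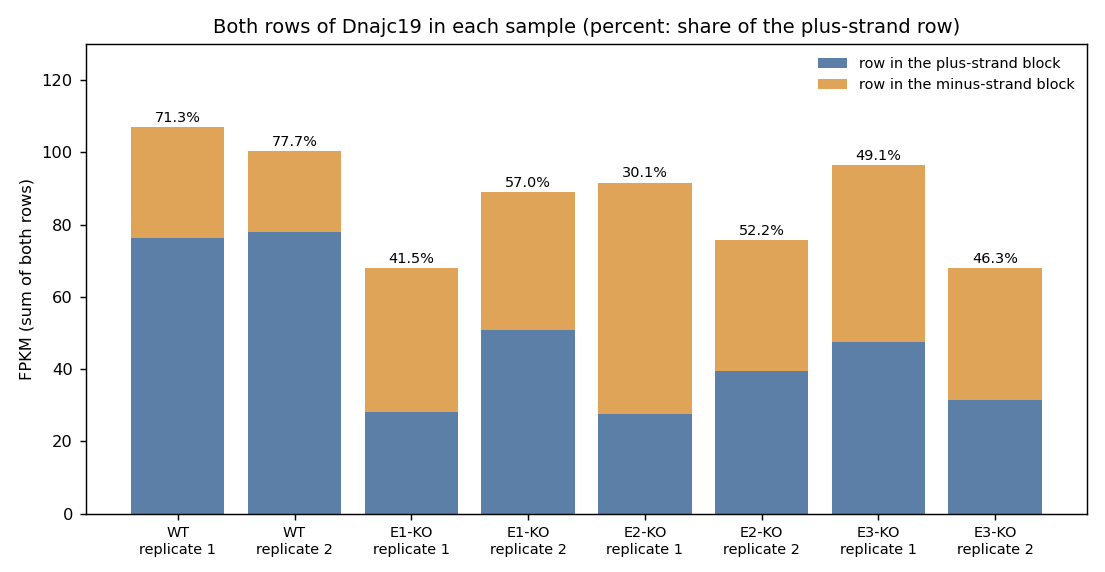
FPKM of the plus-strand and minus-strand rows of Dnajc19 and of their sum in each of the 8 samples. The plus-strand row is above 76 FPKM in WT and at most 50.8 in the knockouts, the minus-strand row is at most 30.7 in WT and at least 36.2 in the knockouts, and the sums lie between 68.0 and 106.9.

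On the downstream side, Atp11b was called lower than WT in E2-KO and E3-KO but not in E1-KO. It encodes a P4-ATPase, a flippase that moves phospholipids to the inner leaflet of a membrane, and starts 1104 kb from Sox2. Its samples held 37.2 and 31.7 FPKM in WT. E1-KO held 35.0 and 29.9, E2-KO 23.3 and 22.6, and E3-KO 23.6 in both samples. E1-KO overlapped WT, and the other 4 knockout values lay apart and lower. Atp11b fell in the other knockouts, with log2 fold changes of -0.56 for E2-KO and -0.53 for E3-KO (SE 0.115), adjusted p of 0.00712 and 0.00695, to 66.5% and 68.4% of the WT mean. In E1-KO it had -0.08 (adjusted p 0.592). Without WT replicate 1 neither fall passed, with adjusted p of 0.0630 for E2-KO (-0.45) and 0.0637 for E3-KO (-0.41). Tested directly, E3-KO was lower than E1-KO by 0.44 (adjusted p 0.0248), while E2-KO against E1-KO gave -0.48 and did not pass (adjusted p 0.102). The E3-KO difference did not pass with quantile normalization (0.0723), median ratio scaling (0.0721) or scaling without the 50 highest rows (0.0568).

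Dcun1d1 encodes a scaffold that helps attach NEDD8 to cullins, and its row at the gene's own place (minus strand) held 17.4 and 17.1 FPKM in WT. E1-KO held 22.4 and 19.4, E2-KO 19.4 and 14.6, and E3-KO 14.0 and 17.0. The E1-KO samples were above WT, the E3-KO samples below it, and E2-KO lay on both sides. No comparison with WT passed (log2 fold changes 0.26, -0.04 and -0.15). Its plus-strand row stayed between 0.622 and 1.65 FPKM, near the minimum for the test, and did not pass either. Mccc1 encodes the biotin-carrying subunit of methylcrotonyl-CoA carboxylase, an enzyme of leucine breakdown in mitochondria. Mccc1 held 13.6 and 16.1 FPKM in WT, against 10.8 and 12.8 (E1-KO), 11.3 and 10.2 (E2-KO) and 12.8 and 9.30 (E3-KO). The knockouts lay under WT without overlap, but the log2 fold changes of -0.31, -0.43 and -0.41 did not pass (adjusted p 0.172, 0.0709 and 0.0730). E2-KO passed when samples were scaled without the 50 highest rows or without chromosome 6, and in the pair alone (adjusted p 0.0462). Without E3-KO replicate 1, the log2 fold change in E3-KO was -0.62.

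Usp13, a deubiquitinase and the farthest of the genes at 1833 kb, had the opposite sign. WT held 3.48 and 3.97 FPKM, E1-KO 3.87 and 4.89, E2-KO 5.55 and 5.03, and E3-KO 5.98 and 4.20. Of the 6 knockout samples, 5 lay above both WT samples. Its log2 fold changes were 0.18, 0.41 and 0.35, and none passed (adjusted p 0.446, 0.100 and 0.137). With quantile normalization or the correction for GC and length, E2-KO and E3-KO passed. E3-KO also passed with median ratio scaling (adjusted p 0.0478), and without E3-KO replicate 2 its log2 fold change was 0.56.

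Between knockouts, Atp11b was the 1 row called between E3-KO and E1-KO, where 24.8% of all rows were called. In that comparison 4 of the 10 rows had an unadjusted p under 0.05, and limma without the trend called 2. None was called between E2-KO and E1-KO, where 0.577% of all rows were called, and none between E3-KO and E2-KO, where 14.4% were. At an unadjusted p under 0.05 the counts for these last comparisons by limma-trend were 1 and 0, and limma without the trend called 0 in both. Over the 4 groups together, 4 of the 10 rows differed (Atp11b, Ccdc39, Ttc14 and the plus-strand row of Dnajc19), beside 52.9% of all rows.

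**Figure D3:**
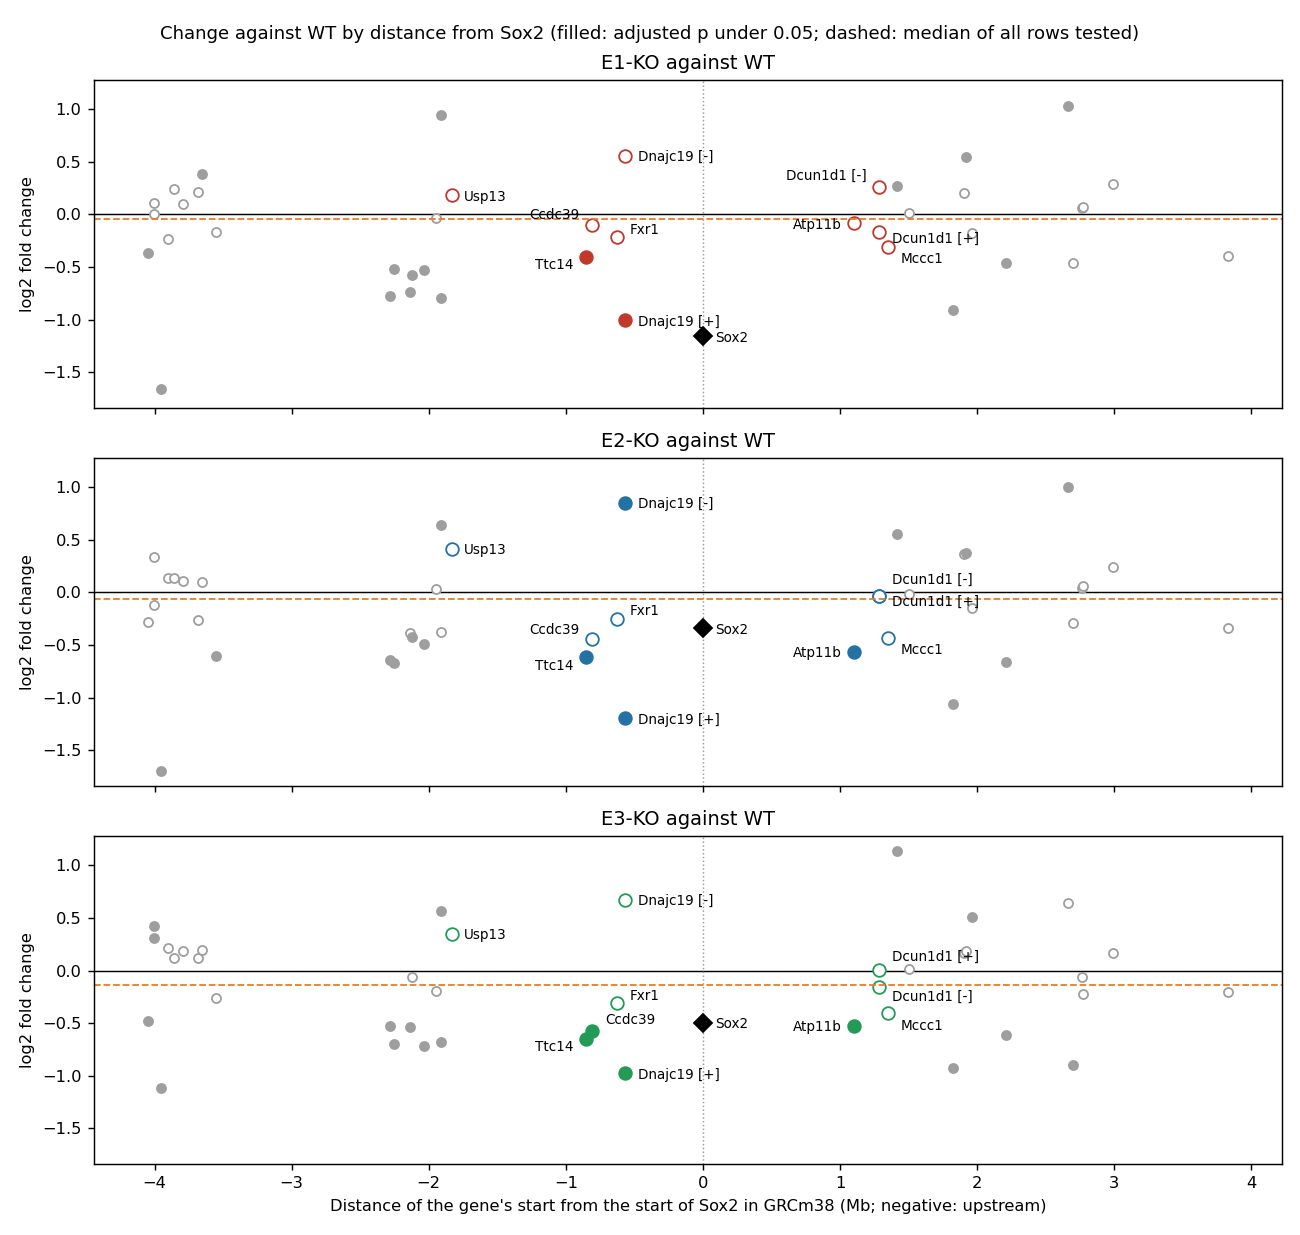
Log2 fold change of each knockout against WT by the distance of a gene's start from Sox2 (Mb, GRCm38), with flanking genes coloured, other tested genes within 5 Mb grey and Sox2 black; [+] and [-] mark the strand block of a repeated identifier. Filled points have an adjusted p under 0.05 and the dashed line is the median of all rows (-0.05, -0.07 and -0.14).

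The log2 fold changes did not order by distance from Sox2. Fxr1, at 630 kb, had -0.22, -0.25 and -0.31 in E1-KO, E2-KO and E3-KO. Ttc14, at 851 kb, had -0.40, -0.62 and -0.65. Whether the genes differ from each other was not tested. In E2-KO the rows called lower lay 569 kb (Dnajc19, plus-strand row) and 851 kb (Ttc14) upstream and 1104 kb downstream (Atp11b). The minus-strand row of Dnajc19, at the same 569 kb, was called higher (0.85, adjusted p 0.0321). The sum of both rows did not pass (-0.31, 0.216), so no direction is given for Dnajc19 as a gene. Between Dnajc19 and Ttc14 lay Fxr1 and Ccdc39 (806 kb). Neither passed in E2-KO in the fit of all 8 samples on the deposited scale (limma-trend adjusted p 0.159 and 0.0572). With quantile normalization or scaling without chromosome 6, Fxr1 in E2-KO passed. On each side the listed genes next after the called ones, Dcun1d1, Mccc1 and Usp13, did not pass in the fit of all 8 samples on the deposited scale. Mccc1 in E2-KO passed in a fit of the pair alone. When samples were scaled by the median ratio, the median of all rows moved from -0.14 to near 0 in E3-KO. Relative to the median of all rows, the falls in E3-KO were -0.51 for Ttc14, -0.39 for Atp11b, -0.43 for Ccdc39 and -0.84 for the plus-strand row of Dnajc19.

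**Figure D4:**
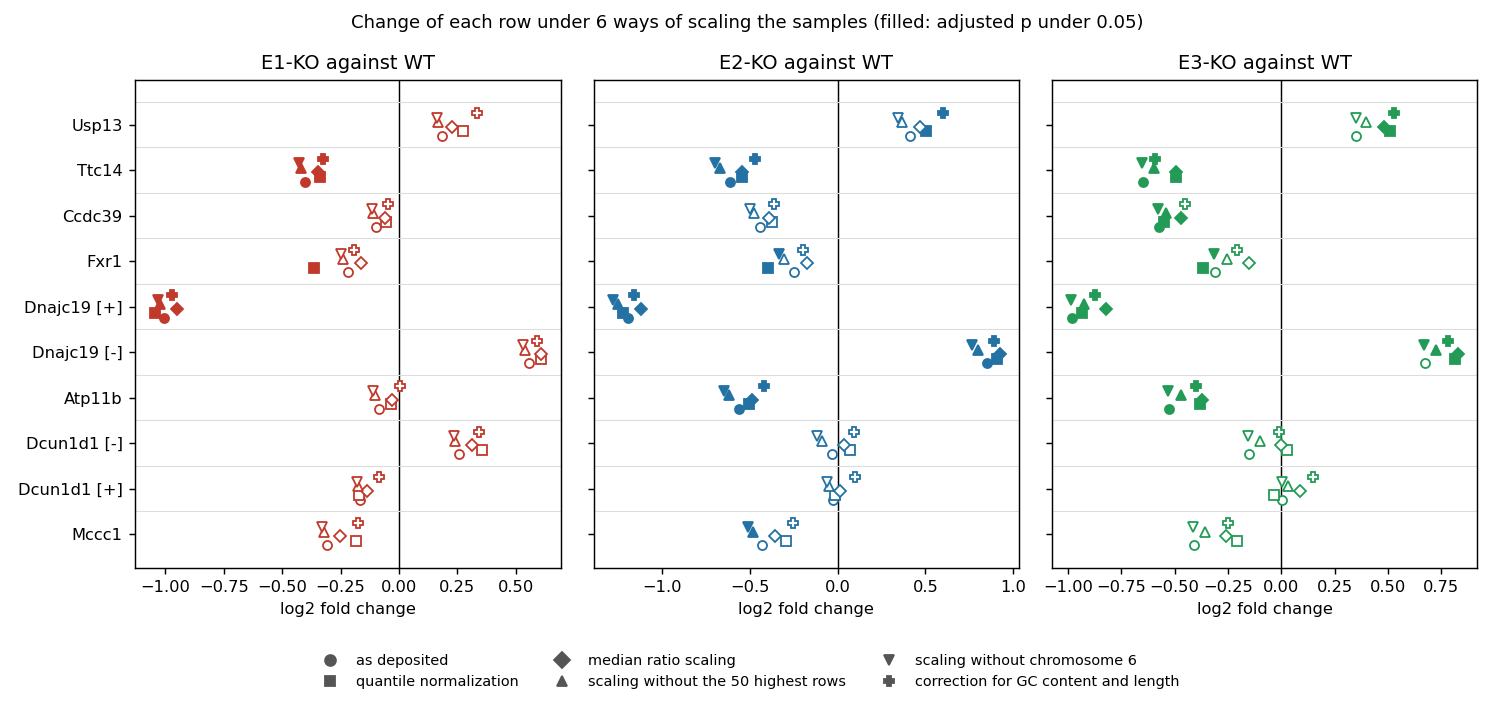
Log2 fold change against WT of each row of the flanking genes under the deposited scale and other scalings of the samples. Ttc14 is below 0 under each scaling shown in every knockout, while both rows of Dcun1d1 change sign between scalings in E2-KO and E3-KO.

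Other genes around Sox2 moved in both directions. Outside the list, 31 rows within 5 Mb were tested. In E1-KO 10 were lower (32.3%, beside 21.8% of all rows) and 5 higher (16.1%, beside 15.1%). E2-KO had 8 lower (25.8%, beside 20.9%) and 4 higher (12.9%, beside 14.0%). E3-KO had 10 lower (32.3%, beside 29.3%) and 5 higher (16.1%, beside 14.1%). Within 2 Mb 9 such rows were tested, with 2, 1 and 2 lower and 3 higher in each knockout. Of the 526 tested rows on the rest of chromosome 3, 122, 122 and 148 were lower (23.2%, 23.2% and 28.1%). There 72, 60 and 76 were higher (13.7%, 11.4% and 14.4%). Lrrc31, 3951 kb upstream, fell in E1-KO (-1.66), E2-KO (-1.70) and E3-KO (-1.11). Anxa5, a phosphatidylserine-binding annexin 1825 kb downstream, fell as well (-0.91, -1.06 and -0.93). Acad9, a mitochondrial acyl-CoA dehydrogenase that also serves complex I assembly, starts 1416 kb downstream, just beyond Mccc1. It rose by 0.27, 0.55 and 1.14, from a WT mean of 15.0 to 34.2 FPKM in E3-KO. Cetn4, a centrin 2662 kb downstream, rose by 1.03 in E1-KO and 1.01 in E2-KO, while E3-KO at 0.64 did not pass (adjusted p 0.0732). Its WT samples were low and far apart, at 1.33 and 0.379 FPKM. Actl6a, a chromatin remodelling subunit 1944 kb upstream, and D3Ertd254e, 1501 kb downstream, did not pass in any knockout.

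Genes that work with the flanking genes, or are paralogs of them, were taken from a list made by function. Of 54 such genes 51 had a row, and 48 rows were tested. E1-KO had 10 lower and 11 higher (21.8% and 15.1% over all rows tested), E2-KO 9 and 10 (20.9% and 14.0%), and E3-KO 12 and 11 (29.3% and 14.1%). The counts of each list below stand beside the same shares over all rows. The flippase list of Atp11b held 6 tested genes, and all 6 were lower in E1-KO, where Atp11b itself did not pass. E2-KO had 4 lower and 1 higher, and E3-KO had 1 lower. Atp8a1 had log2 fold changes of -1.05, -0.97 and -1.10, all called. Atp9a was called in E1-KO (-0.64) and E2-KO (-0.38), while E3-KO at -0.18 missed the threshold.

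For the neddylation pathway of Dcun1d1, 14 genes were tested, with 1 lower and 5 higher (E1-KO), 1 and 4 (E2-KO), and 2 and 6 (E3-KO). Nedd8, the modifier itself, rose by 1.00, 0.94 and 0.55, and its conjugating enzyme Ube2m by 0.73, 0.69 and 0.77. The import motor of Dnajc19 had 12 tested genes, with 1 lower and 5 higher (E1-KO), 0 and 4 (E2-KO), and 2 and 5 (E3-KO). Among them Timm17a, a channel subunit of TIM23, rose by 0.45, 0.69 and 0.63. Of 9 tested genes of leucine breakdown, the pathway of Mccc1, the knockouts had 2, 3 and 5 lower, and 1, 1 and 0 higher. Mccc2, the partner subunit of Mccc1, fell in E3-KO by 0.96. Dbt, a subunit of the branched-chain ketoacid dehydrogenase, fell in E2-KO (-0.64) and E3-KO (-0.58). Bckdhb, another subunit of that complex, rose by 0.86 in E1-KO and 0.54 in E2-KO.

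Promoters are shown for 3 flanking genes called in at least 1 knockout, to show how unlike they are in CG content. They are RefSeq sequences on GRCm38.p6, from 250 bases before to 50 bases after the annotated start, with CG pairs in capitals. RefSeq tables held a promoter for 7 of the 9 listed genes, and none for Ttc14. Atp11b has chr3:35753813-35754112 (plus strand), Dnajc19 chr3:34081305-34081604 (minus strand) and Ccdc39 chr3:33844261-33844560 (minus strand).
Atp11b: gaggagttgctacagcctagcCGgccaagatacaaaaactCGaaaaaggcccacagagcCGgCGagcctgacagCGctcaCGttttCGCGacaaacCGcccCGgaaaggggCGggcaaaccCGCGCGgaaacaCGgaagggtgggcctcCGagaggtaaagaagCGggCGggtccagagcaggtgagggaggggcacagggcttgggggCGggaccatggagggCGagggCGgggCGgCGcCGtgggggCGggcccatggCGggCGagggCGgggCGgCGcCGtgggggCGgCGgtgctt
Dnajc19: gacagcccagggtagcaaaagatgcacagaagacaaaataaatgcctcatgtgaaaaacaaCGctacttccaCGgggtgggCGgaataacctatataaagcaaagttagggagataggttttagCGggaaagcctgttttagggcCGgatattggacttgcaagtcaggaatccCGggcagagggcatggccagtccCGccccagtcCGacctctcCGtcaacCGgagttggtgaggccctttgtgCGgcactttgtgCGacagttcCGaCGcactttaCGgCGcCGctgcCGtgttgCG
Ccdc39: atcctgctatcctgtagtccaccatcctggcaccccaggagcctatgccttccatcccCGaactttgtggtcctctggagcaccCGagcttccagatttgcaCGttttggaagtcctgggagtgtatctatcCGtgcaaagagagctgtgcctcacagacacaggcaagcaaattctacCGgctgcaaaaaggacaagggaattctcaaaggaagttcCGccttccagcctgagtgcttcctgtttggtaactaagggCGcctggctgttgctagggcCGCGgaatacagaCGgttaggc
The Atp11b promoter held 33 CG pairs, that of Dnajc19 19 and that of Ccdc39 10, beside a median of 7 over 32851 promoters. The octamer core ATTTGCA, searched on both strands, was found once, in the Ccdc39 promoter, and in 4.0% of all promoters. The SOX core CATTGT was in none of the 3 windows and in 12.6% of all promoters. A match describes the letters only and marks no bound site.

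Stem cell markers were present in all samples. The summed level of 8 of 8 embryonic stem cell markers was 2402 to 2528 FPKM in WT and 1843 to 2354 over the knockout samples, without overlap. The sum of the 4 of 6 neural markers that had a row was 15.4 to 17.3 in WT and 23.7 to 27.2 in the knockouts. Of 6 fibroblast markers, 5 (Col1a1, Col1a2, Col3a1, Lum and Postn) were under 1 FPKM in every sample, and the summed level was 1.14 to 1.57 in WT and 2.36 to 3.76 in the knockouts. Trophectoderm markers summed to 53.5 to 57.0 in WT and 34.9 to 65.9 in the knockouts, with Cdx2 and Elf5 under 1 in every sample, and primitive endoderm markers to 1.55 to 1.65 and 0.736 to 4.69. Their part in the changes of the flanking genes was not tested. In bulk RNA, fewer cells expressing a gene and less RNA per cell cannot be told apart.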

How the data were processed

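RNA-seq libraries of 8 samples (4 groups of 2) were sequenced as paired-end reads of 150 bases, per the labels' protocols. The submitters' processing notes name Trimmomatic 0.36, TopHat2 2.0.12, Cufflinks 2.2.1 and mm9, without role or order. The authors deposited 1 value per row and sample in FPKM, a unit taken from the values and the naming of Cufflinks, since the header names only the sample. Strand setting and normalization between samples are not given in the sources used here. FPKM keeps no count, so no interval for counting error is given.

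Symbols matched 17262 of 17812 identifiers. Of these identifiers, 660 had more than 1 row (1622 rows), and each row was kept apart. A row's strand block was the majority strand of the 5 nearest single-row identifiers on each side in the table's order. By that rule 99.5% of single rows fell in their own strand's block, and 867 of 1573 repeated rows with a position fell in the opposite one.

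Rows with a mean of at least 1 FPKM were tested on log2(FPKM + 1) with limma 3.58.1 (R 4.3.3, trend, group only, 4 residual degrees of freedom), adjusted over all rows and called under 0.05. The fit was tested on simulated data. Labels call the replicates biological duplicates without naming separate cultures, so p-values measure the spread between these samples. Nothing says that a number pairs samples: deviations of same-numbered samples correlated by 0.001 on average (-0.057 to 0.072). Named were every row of the listed genes, the nearest 3 tested neighbours on each side and the 2 with the largest change in each direction and knockout within 5 Mb, up to 2 partner genes per direction and knockout, and the row most like each member. Members and lists were chosen with earlier results of these data known. Alternatives covered scaling, pseudocount, filters, thresholds, the replicate block, repeated rows and leaving out each sample. Scaling without chromosome 6 and a correction for GC content and length (98.4% of rows had values) were added after seeing the data.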

Additional observations from a re-analysis of the deposited data

Results flagged for a closer look

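Atp11b was lower in E3-KO than in E1-KO by a direct test of the 2 knockouts (log2 difference -0.44, SE 0.115, adjusted p 0.0248 by limma-trend, n = 2 each). Both E3-KO samples (23.6 FPKM each) lay below both E1-KO samples (35.0 and 29.9). The difference did not pass with quantile normalization (-0.35, adjusted p 0.0723), median ratio scaling (-0.34, 0.0721) or scaling without the 50 highest rows (-0.37, 0.0568). It was also lost without E1-KO replicate 1 (-0.33, 0.180), E3-KO replicate 1 (0.0732) or E3-KO replicate 2 (0.0649).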

How the results depend on the processing

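With 1 sample left out, of 528 log2 fold changes of the flanking rows and Sox2, 478 stayed on the same side of the threshold, 37 lost a call and 13 gained one. Direction was counted for called rows only, so an uncalled row could change sign and still count as unchanged. Of 948 under other alternatives, 885 stayed on the same side, 35 lost a call, 27 gained one and 1 called row reversed. Summing the rows of Dnajc19 turned the called rise of its minus-strand row in E2-KO into -0.31. It also turned the uncalled rises in E1-KO (0.56) and E3-KO (0.67) into -0.41 and -0.35. Brackets below give the calls over all rows in the same setting, of 11788 rows where no other total is given. Against WT in E1-KO 2 flanking rows were called (4346). The number became 4 in a fit of the 4 samples of the pair (5677) and 1 with all rows above 0 tested (4104 of 18774). It was 1 with rows of an identifier summed (4282 of 11490) and 1 with repeated identifiers left out (4176 of 10938). At an adjusted p under 0.01 it was 0 (2165), and with a limit of 1 on the size of the log2 fold change 1 (756). In E2-KO 4 (4111) became 2 with rows summed (4089 of 11490), 2 at 0.01 (1999) and 1 with the fold limit (691). In E3-KO 4 (5120) became 7 with quantile normalization (4888 of 11787), 2 at 0.01 (3017) and 0 with the fold limit (1004). Between E3-KO and E1-KO 1 (2925) became 0 with median ratio scaling (2764 of 11786) and without the 50 highest rows (2683 of 11790). There it was also 0 at 0.01 (1334) and with the fold limit (592), and 2 without the trend (2789). Over the 4 groups (4) it became 2 with all rows above 0 and 2 at 0.01. Leaving out 1 sample gave 0 to 3 in E1-KO, 1 to 5 in E2-KO, 1 to 6 in E3-KO, 0 to 2 between E3-KO and E1-KO, 2 to 6 over the 4 groups, and 0 between the other knockouts. The group left with 1 sample is then assumed to vary like the others. The cause of these changes was not tested.

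With the replicate block the counts were 3, 4 and 5 against WT, beside 4079, 3865 and 4904 over all rows. E3-KO against E1-KO had 1, beside 2673, and the 4 groups had 5. The minus-strand row of Dnajc19 then passed in E1-KO (adjusted p 0.0359) and E3-KO (0.0150). Over all rows, calls between E2-KO and E1-KO (68) ranged from 0 without either WT replicate to 209 without E3-KO replicate 1, with 25 under the replicate block, 1 in the pair alone, 1 with all rows above 0, 0 at 0.01, 34 with the fold limit and 108 with the GC correction. Against WT the calls over all rows (4346, 4111 and 5120) were 2165, 1999 and 3017 at 0.01, 756, 691 and 1004 with the fold limit, and without WT replicate 2, the lowest of the fits that left out a sample, 1946, 1777 and 2774. The fold limit was not run for the 4 groups. Without read counts, the counting error of low rows such as those of Ccdc39, Usp13 and Dcun1d1 is unknown.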

Other observations

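Mrpl47, a mitochondrial ribosomal protein, and Ndufb5, a subunit of respiratory complex I, both start 1913 kb upstream of Sox2, close to Usp13, and moved in opposite directions. Mrpl47 rose in each knockout (log2 fold changes 0.95, 0.64 and 0.57 for E1-KO, E2-KO and E3-KO). Ndufb5 fell by 0.79 in E1-KO and 0.68 in E3-KO, with -0.38 in E2-KO (adjusted p 0.0554 by limma-trend).

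The row most like each flanking row over the 8 samples, by the root mean square difference of log2(FPKM + 1) from the WT mean among rows within 2-fold in level, was Dcp1a for Ttc14 (0.054), Thoc2 for Atp11b (0.070), Xpo1 for Fxr1 (0.050), Smyd1 for Ccdc39 (0.083), Scamp5 for Mccc1 (0.080) and Gba2 for Usp13 (0.093). The rows of Dnajc19 had no match as close as these: Hadh (0.240) for the plus-strand row and Pdcd5 (0.130) for the minus-strand row. Dcun1d1 had Arglu1 (0.073) for its minus-strand row. Its plus-strand row had Sgsh (0.125), about as far as Pdcd5 was from the minus-strand row of Dnajc19. Of these 10 genes, Hadh lies on chromosome 3.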
